A study of Saccharomyces cerevisiae with 10 samples.

Results

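Protein kinase A is the enzyme through which budding yeast passes on the presence of glucose to growth and stress programmes. The GTPases Ras1 and Ras2 stimulate adenylate cyclase (Cyr1), and the cyclic AMP it makes binds the regulatory subunit Bcy1 and frees the catalytic subunits, among them Tpk2 and Tpk3. The phosphodiesterases Pde1 and Pde2 break cyclic AMP down. Active protein kinase A restrains the kinase Rim15 and the transcription factors Msn2 and Msn4, which otherwise turn on stress genes through the stress response element in their promoters.

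The transcripts followed here are RAS1, RAS2, CYR1, BCY1, TPK2, TPK3, PDE1, PDE2 and RIM15, taken by gene name as members of this pathway. They are 9 of the 5449 *Saccharomyces cerevisiae* genes measured, each by 1 probe set (a group of oligonucleotides that read the same transcript) of an Affymetrix Yeast Genome 2.0 array. Their systematic names are YOR101W (RAS1), YNL098C (RAS2), YJL005W (CYR1), YIL033C (BCY1), YPL203W (TPK2), YKL166C (TPK3), YGL248W (PDE1), YOR360C (PDE2) and YFL033C (RIM15). RNA came from 2 replicate cultures, each sampled at 5 points of a salt stress regime at 30 °C, which gave 2 arrays per point. Sample A was in log phase growth in YPD, a rich glucose medium. Sample B was collected during stress adaptation, 1 h after dilution of the culture with fresh YPD that brought KCl to 1 M. Sample C was collected after adaptation, still in KCl. Sample D was collected during stress recovery, 1 h after cells had been pelleted and moved to fresh YPD without KCl. Sample E followed after 2 to 3 further generations. In Sample B against Sample A and in Sample D against Sample C, the change in KCl and the fresh medium cannot be told apart. All groups share 1 strain. The labels call it BQS1350 and the study's methods describe, in what is taken here to be the same strain, a haploid MATα BY4742 derivative with a myc-tagged Gcn5 and mutations in HIS3, LEU2, LYS2 and URA3. No group had an untagged strain.

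The values are log2 expression values, so a difference of 1 is a doubling. All 9 transcripts lay above the 95th percentile of the probe sets for another species on all 10 arrays. The α-cell transcripts MF(ALPHA)1 and STE3 read 13.2 to 14.0 and 11.76 to 12.74, whereas the a-cell transcripts MFA1, MFA2, STE2 and BAR1 read 5.23 to 7.45. LEU2, LYS2 and URA3 read 3.62 to 5.99, and HIS3, mutated in this strain, read 10.21 to 11.58. The 2 arrays of Sample B differed by a root mean square of 1.04 over the genes measured, and those of the remaining samples by 0.32 to 0.48, and replicate 2 of Sample B had the highest array median (10.19, lowest 9.59). The 18S ribosomal control probe set gave 10.09 and 10.31 for Sample B, below the 11.21 to 12.66 of the remaining samples. The 25S control read 13.55 and 14.00 in Sample B, within the 13.43 to 14.04 of the rest. The 3′ minus 5′ signal of 7 control transcripts is a measure of RNA integrity. In Sample B it lay above the range of the rest on both arrays for EAF5 (1.16 and 1.31, against 0.76 to 1.08) and on 1 array for SPT15 and SRB4, on either side of it for ACT1 (0.18 and 0.56, against 0.25 to 0.37), and within it for RIP1, TDH1 and WBP1. The part of these array-wide features in the results was not tested. The study grew its replicate cultures at different times, so p-values measure the spread between 2 batches. The 5 samples with the same replicate number are taken to come from the same culture, which the sample titles do not state. The arrays read RNA of whole cultures, in which fewer cells carrying a transcript and less of it per cell cannot be told apart.

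To see how the pathway transcripts differed after dilution into fresh medium with KCl, Sample B was first compared with Sample A. None of the 9 passed the test (limma, adjusted p under 0.05), against 4.4% of all genes. At an unadjusted p under 0.05 it was 1 of 9, PDE1, against 20.0% of all genes. PDE1 and TPK2 were at least 1.8-fold higher in Sample B by group means, 2 of 9 against 12.4% of all genes, and no member was 1.8-fold lower (5.54% of all genes). PDE1 was the only member whose Sample B arrays both lay above both Sample A arrays (23.1% of all genes did), and no member lay wholly below (15.9%). The median difference of the members was 0.56, against 0.08 over all genes. The replicates were unlike, with an all-gene median of -0.18 within replicate 1 and 0.44 within replicate 2. CYR1, BCY1, TPK3, PDE2 and RIM15 were below 0 within replicate 1 and above 0 within replicate 2. PDE1 and TPK2 were above 0 within both and RAS1 below 0 within both, while RAS2 was 0.0 and 1.12.

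PDE1, the low-affinity cyclic AMP phosphodiesterase, read 9.49 and 9.81 in replicates 1 and 2 of Sample A, 10.49 and 11.10 in Sample B, 10.15 and 10.06 in Sample C, 10.28 and 10.53 in Sample D, and 9.72 and 10.35 in Sample E. Its lowest values were the Sample A arrays and replicate 1 of Sample E, and its highest array was replicate 2 of Sample B. PDE1 averaged 10.80 ± 0.43 in Sample B and 9.65 ± 0.23 in Sample A (SD, n = 2 each), a 2.22-fold difference (log2 difference 1.15 ± 0.31, SE, 95% interval 0.45 to 1.85, adjusted p = 0.0779 by limma). The difference was 1.00 within replicate 1 and 1.29 within replicate 2, and 7.80% of all genes had a larger one. With the replicate number as a block, PDE1 passed (adjusted p = 0.0221), 1 of 9 members against 10.7% of all genes. After each array had been centred on its median, which lowered the typical gene by 0.14 in this comparison, the difference was 1.00 (adjusted p = 0.0362).

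PDE2, the high-affinity phosphodiesterase, did not share this pattern. It read 11.34 and 10.80 in Sample A, 10.66 and 11.16 in Sample B, 10.57 and 10.74 in Sample C, 10.77 and 10.62 in Sample D, and 11.09 and 11.18 in Sample E. The arrays of Samples C and D lay below both arrays of Sample A, whereas those of Samples B and E overlapped them. The difference of Sample B from Sample A was -0.16 ± 0.27 (SE, 95% interval -0.79 to 0.46, adjusted p = 0.801 by limma). It was -0.68 within replicate 1 and 0.36 within replicate 2.

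**Figure D1:**
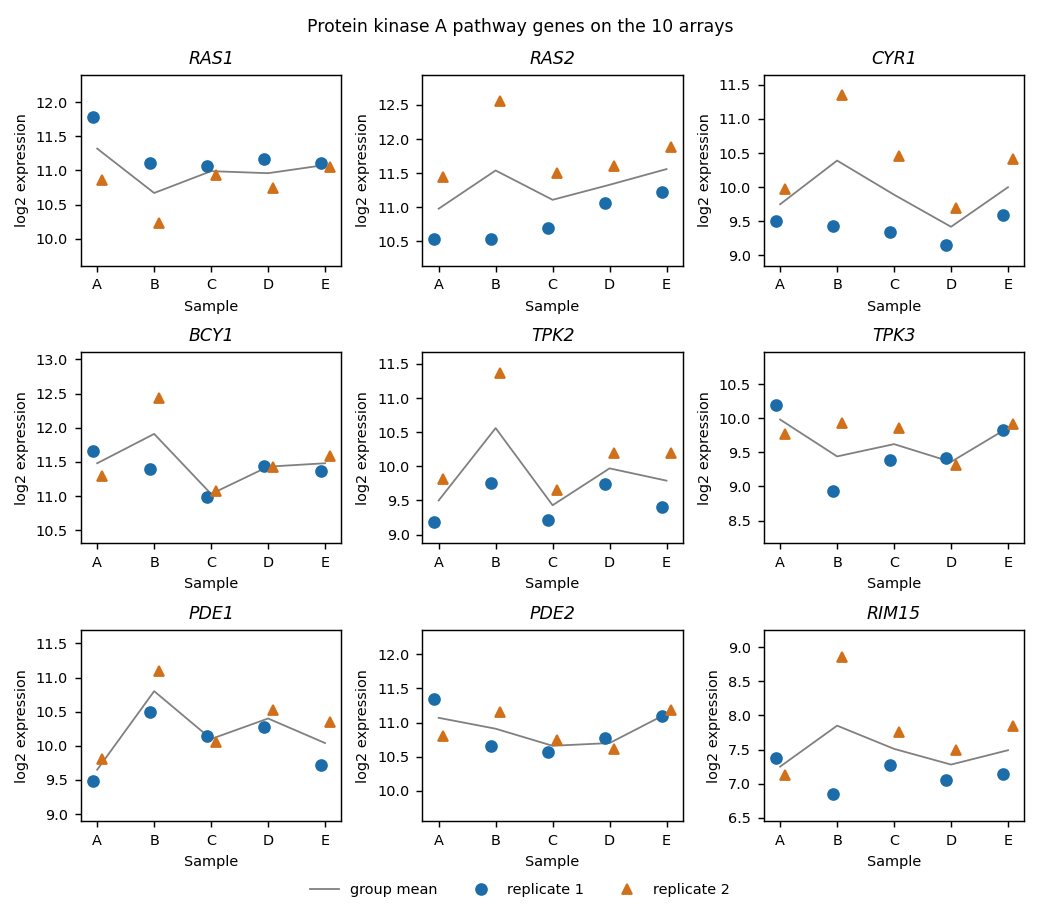
Log2 expression of the 9 protein kinase A pathway genes (vertical axes, which all span the same range) in Samples A to E (horizontal axes). Circles are replicate 1, triangles replicate 2, and the grey line joins the group means. The PDE1 arrays of Samples B, C and D all lie above those of Sample A, and replicate 2 of Sample B is the highest array for RAS2, CYR1, BCY1, TPK2, PDE1 and RIM15. That array also had the highest array median, and the share of all genes that were highest on it was not computed.

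Among the genes that act on adenylate cyclase, RAS1 was the one member with its lowest mean in Sample B. RAS1 encodes one of the Ras GTPases. It read 11.78 and 10.86 in Sample A, 11.11 and 10.23 in Sample B, 11.06 and 10.93 in Sample C, 11.17 and 10.75 in Sample D, and 11.11 and 11.05 in Sample E. The lowest array was replicate 2 of Sample B and the highest replicate 1 of Sample A, and the arrays of Samples B and A overlapped. RAS1 averaged 10.67 ± 0.63 in Sample B and 11.32 ± 0.65 in Sample A (SD, n = 2 each). The difference was -0.65 ± 0.38 (SE, 95% interval -1.52 to 0.22, adjusted p = 0.391 by limma). In the values as deposited it was nearly the same within replicate 1 (-0.67) and within replicate 2 (-0.64). The all-gene median was -0.18 within replicate 1 and 0.44 within replicate 2, so this likeness depends on the scaling of the arrays.

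RAS2, the other Ras GTPase, read 10.53 and 11.44 in Sample A, 10.53 and 12.56 in Sample B, 10.70 and 11.51 in Sample C, 11.07 and 11.60 in Sample D, and 11.23 and 11.89 in Sample E. Replicate 2 was above replicate 1 in every sample, and the replicate 2 array of Sample B was the highest. Sample B differed from Sample A by 0.56 ± 0.63 (SE, 95% interval -0.88 to 2.00, adjusted p = 0.683 by limma). It was 0.0 within replicate 1 and 1.12 within replicate 2.

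CYR1, the adenylate cyclase itself, read 9.51 and 9.98 in Sample A, 9.43 and 11.35 in Sample B, 9.34 and 10.45 in Sample C, 9.15 and 9.70 in Sample D, and 9.59 and 10.41 in Sample E. As for RAS2, replicate 2 was the higher array in each sample and the groups overlapped. The difference of Sample B from Sample A was 0.64 ± 0.62 (SE, 95% interval -0.78 to 2.06, adjusted p = 0.625 by limma), with -0.08 within replicate 1 and 1.37 within replicate 2.

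BCY1, the regulatory subunit that keeps the kinase inactive until cyclic AMP binds, read 11.66 and 11.29 in Sample A, 11.39 and 12.43 in Sample B, 10.98 and 11.07 in Sample C, 11.44 and 11.42 in Sample D, and 11.37 and 11.59 in Sample E. Replicate 2 of Sample B stood above every other array, and the Sample C arrays were the lowest. Sample B differed from Sample A by 0.43 ± 0.34 (SE, 95% interval -0.34 to 1.19, adjusted p = 0.542 by limma). Within replicates it was -0.28 and 1.13.

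The catalytic subunits TPK2 and TPK3 had opposite signs in Sample B. TPK2, the subunit known for its role in filamentous growth, read 9.18 and 9.81 in Sample A, 9.76 and 11.36 in Sample B, 9.21 and 9.65 in Sample C, 9.74 and 10.20 in Sample D, and 9.40 and 10.19 in Sample E. Its lower Sample B array lay just under the higher Sample A array. TPK2 averaged 10.56 ± 1.13 in Sample B and 9.50 ± 0.45 in Sample A (SD, n = 2 each), a 2.09-fold difference that did not pass the test (log2 difference 1.06 ± 0.52, SE, 95% interval -0.12 to 2.24, adjusted p = 0.30 by limma). It was 0.58 within replicate 1 and 1.54 within replicate 2, and the block gave an adjusted p of 0.0591.

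TPK3, the other catalytic subunit, read 10.19 and 9.77 in Sample A, 8.94 and 9.93 in Sample B, 9.39 and 9.85 in Sample C, 9.41 and 9.31 in Sample D, and 9.82 and 9.91 in Sample E. Its lowest array was replicate 1 of Sample B, while replicate 2 of Sample B was among its higher ones. The difference of Sample B from Sample A was -0.54 ± 0.35 (SE, 95% interval -1.33 to 0.24, adjusted p = 0.437 by limma), with -1.24 within replicate 1 and 0.16 within replicate 2.

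RIM15, the kinase that protein kinase A holds back and that directs entry into stationary phase, read 7.38 and 7.12 in Sample A, 6.85 and 8.85 in Sample B, 7.27 and 7.76 in Sample C, 7.06 and 7.49 in Sample D, and 7.14 and 7.85 in Sample E. Sample B held both its lowest and its highest array. The difference of Sample B from Sample A was 0.60 ± 0.57 (SE, 95% interval -0.70 to 1.90, adjusted p = 0.622 by limma), with -0.53 within replicate 1 and 1.72 within replicate 2.

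The outcome depended on which Sample B array was used. With 1 array left out, Sample B rests on a single array that is assumed to vary like the other samples, whose arrays were more alike. Without replicate 1 of Sample B, 7 of 9 members passed, RAS1 as lower and RAS2, CYR1, BCY1, TPK2, PDE1 and RIM15 as higher, against 33.9% of all genes. Without replicate 2 of Sample B none passed, against 9.67% of all genes, and the difference was -0.45 for RAS2, -0.32 for CYR1, -0.09 for BCY1 and -0.40 for RIM15. PDE1, TPK2, RAS1 and TPK3 kept their sign in all 18 alternative settings. PDE1 ranged from 0.84 to 1.45 over them and passed in 5, and TPK2 ranged from 0.27 to 1.86 and passed in 2.

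**Figure D2:**
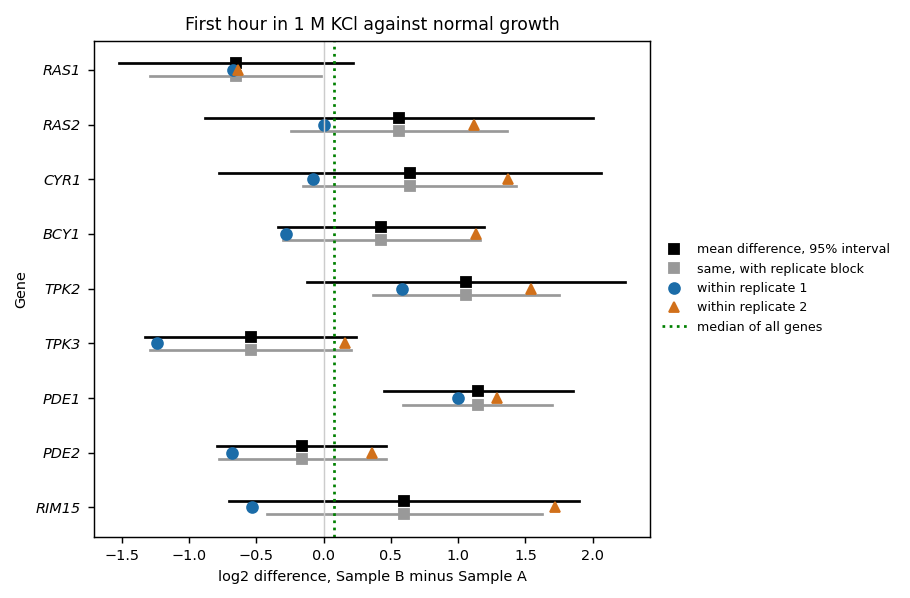
Log2 difference of Sample B minus Sample A (horizontal axis) for each gene (vertical axis). Black squares and lines are the mean difference with its 95% interval, grey ones the same with the replicate number as a block, circles and triangles the differences within replicates 1 and 2, and the dotted line the median of all genes (0.08). The interval of PDE1 (0.45 to 1.85) lies above 0, and those of the other genes include 0 without the block.

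Because the 3 pairs of related genes were read on the same arrays, each pair was also compared by its ratio within an array, which an array-wide scaling factor does not alter. Against Sample A, the TPK2 to TPK3 ratio in Sample B was larger by 3.04-fold (log2 1.61, with 1.83 within replicate 1 and 1.38 within replicate 2). The PDE1 to PDE2 ratio was 2.48-fold higher (1.31, with 1.69 and 0.93). For both pairs the Sample B arrays lay above the Sample A arrays. How often other gene pairs lie apart like this, here or in the later samples, was not computed. The RAS2 to RAS1 ratio was 1.21 higher by means (0.67 and 1.76), and its arrays overlapped. An exact two-sided permutation test of 2 against 2 arrays cannot give less than p = 0.333, the value for both TPK2 to TPK3 and PDE1 to PDE2.

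The pairs differed in how these ratios went on. The TPK2 to TPK3 ratio was lower in Sample C than in Sample B (-1.31, with -0.99 and -1.63), and higher in Sample D than in Sample C (0.80, with 0.50 and 1.10), 2 comparisons that share the Sample C arrays. The PDE1 to PDE2 ratio was above that of Sample A in Sample C (0.87, with 1.43 and 0.31) and in Sample D (1.13, with 1.35 and 0.90) without overlap of the arrays. In Sample E the differences from Sample A were 0.41 for TPK2 to TPK3 and 0.33 for PDE1 to PDE2, and the arrays overlapped.

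**Figure D3:**
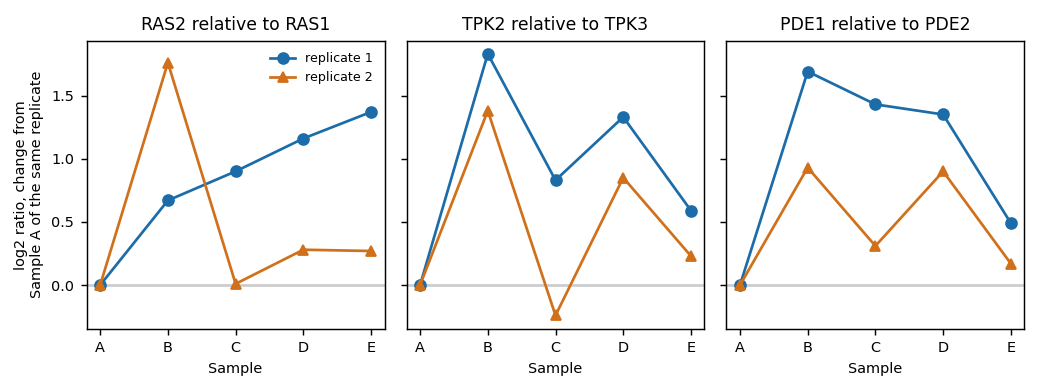
Log2 ratio within an array for RAS2 to RAS1, TPK2 to TPK3 and PDE1 to PDE2 (vertical axis), as the change from Sample A of the same replicate, in Samples A to E (horizontal axis). Circles are replicate 1 and triangles replicate 2. TPK2 relative to TPK3 peaks in Samples B and D with both replicates. PDE1 relative to PDE2 is higher in Samples B to E than in Sample A of the same replicate, but the Sample E arrays overlap those of Sample A.

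The next question was whether the pathway transcripts differed from normal growth once cells had adapted, and during and after recovery. No member passed the test in Sample C, D or E against Sample A, where 0.0184%, 0.0% and 0.0% of all genes passed. With the replicate block none passed either, against 0.771%, 0.239% and 0.0% of all genes. At an unadjusted p under 0.05 the members counted 0, 1 and 0, against 4.68%, 4.02% and 0.863% of all genes. In Sample C, PDE1 lay wholly above Sample A (0.46 ± 0.31, SE, with 0.66 and 0.25 within replicates), 1 of 9 members against 18.1% of all genes. BCY1 (-0.45 ± 0.34, SE) and PDE2 (-0.41 ± 0.27, SE) lay wholly below, 2 of 9 against 17.8%.

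Sample D gave the second largest difference of PDE1 from Sample A. It was 0.75 ± 0.31 (SE, 95% interval 0.05 to 1.45, 1.69-fold), unadjusted p = 0.0379 and adjusted p = 1.0 by limma, with 0.79 and 0.72 within replicates, and it ranked 200th among the 5449 genes. PDE1 was the 1 member of 9 wholly above Sample A (9.97% of all genes). TPK3 (-0.62 ± 0.35, SE, with -0.77 and -0.46 within replicates) and PDE2 (-0.37 ± 0.27, SE) lay wholly below, 2 of 9 against 31.8% of all genes. In Sample E no member lay wholly above (21.8% of all genes) or below (0.936%) Sample A, and the differences ran from -0.24 (RAS1) to 0.58 (RAS2). The sign of BCY1 in Samples D and E and of PDE2 in Sample E turned when arrays were centred or quantile normalised. Each of these comparisons shares the Sample A arrays with the others.

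To follow the move out of acute stress, Sample C was compared with Sample B. No member passed, with or without the block (0.0184% and 0.0% of all genes, and 10.3% at an unadjusted p under 0.05, among them BCY1 alone of the 9). BCY1 was 1.84-fold lower in Sample C (-0.88 ± 0.34, SE, 95% interval -1.65 to -0.11, unadjusted p = 0.0289 and adjusted p = 0.429 by limma), with -0.41 and -1.35 within replicates. TPK2 was 2.18-fold lower by means (-1.13 ± 0.52, SE, adjusted p = 0.503, with -0.55 and -1.70), and PDE1 1.62-fold lower (-0.69 ± 0.31, SE, adjusted p = 0.492, with -0.34 and -1.04). These 3 of 9 members lay wholly below Sample B, against 19.1% of all genes, and none lay wholly above (12.4%). Without replicate 1 of Sample B, 6 of 9 members passed as lower in Sample C, against 24.5% of all genes called in either direction. Without replicate 2 of Sample B none passed (0.587%).

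The move from KCl to fresh medium without it was followed by setting Sample D against Sample C. The Sample C arrays enter this comparison and the one with Sample B with opposite signs, so a gene that read low in Sample C is lower in the one and higher in the other. TPK2 differed by 0.54 ± 0.52 (SE, with 0.52 and 0.55 within replicates), BCY1 by 0.41 ± 0.34 (SE, with 0.47 and 0.35) and PDE1 by 0.30 ± 0.31 (SE, with 0.12 and 0.47). These were the 3 of 9 members that lay wholly above Sample C (13.7% of all genes), and none lay wholly below (29.5%). No member or other gene passed the test in this comparison, and with the block 0.0184% of all genes and no member did (4.96% of all genes and no member at an unadjusted p under 0.05), and the adjusted p of each member was 1.0 by limma.

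Samples B and D were both taken 1 h after a change of medium, into KCl and out of it, and the difference between these 2 responses was tested directly. No member passed, against 1.47% of all genes, nor with the block (5.14% of all genes) or at an unadjusted p under 0.05 (15.1%). The difference of Sample B from Sample A exceeded that of Sample D from Sample C by 0.85 ± 0.44 for PDE1 (SE, 95% interval -0.14 to 1.84, adjusted p = 0.397 by limma) and by 1.11 ± 0.88 for CYR1 (SE, interval -0.89 to 3.12, adjusted p = 0.594). For BCY1 it was 0.02 ± 0.48 (SE, interval -1.07 to 1.10), with an interval that holds differences of more than 2-fold in either direction. TPK2 gave 0.52 ± 0.73 (SE, interval -1.14 to 2.19).

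Across the whole regime the span between the lowest and the highest sample mean was 1.15 for PDE1 and 1.13 for TPK2, then 0.97 for CYR1, 0.88 for BCY1, 0.65 for RAS1, 0.62 for TPK3, 0.60 for RIM15, 0.58 for RAS2 and 0.47 for PDE2. The SD pooled over samples was 0.31 for PDE1, 0.36 for BCY1 and 0.63 for TPK2, and it exceeded the span for RAS2 (0.79) and RIM15 (0.71). When the 5 samples were ordered by mean for each gene, 34 of the 36 neighbouring pairs had overlapping arrays. The exceptions were Sample D above Sample C for BCY1 and PDE1. Sample B had the highest mean for CYR1, BCY1, TPK2, PDE1 and RIM15, Sample E for RAS2 and PDE2, and Sample A for RAS1 and TPK3. Neither the overlaps nor the sample orders were counted over all genes, and replicate 2 of Sample B had the highest array median (10.19).

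The replicate number moved with several members in all samples. Replicate 2 minus replicate 1, for Samples A to E in order, was 0.91, 2.03, 0.81, 0.53 and 0.67 for RAS2. It was 0.47, 1.92, 1.11, 0.55 and 0.81 for CYR1, and 0.63, 1.59, 0.44, 0.46 and 0.79 for TPK2. These 3 of 9 members were higher in replicate 2 in all 5 samples, as were 23.2% of all genes (after centring each array also 3 of 9 members, and 15.3% of all genes). RAS1 was lower in replicate 2 in all 5 samples (-0.92, -0.89, -0.13, -0.42 and -0.06), as were 2.73% of all genes. After centring, 2 of 9 members, RAS1 and PDE2, were lower in replicate 2 in all 5 samples, against 16.5% of all genes.

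Over the 10 arrays no gene passed a test of the replicate term (0.0% of all genes), with adjusted p = 0.0977 for RAS2 and for CYR1 and 0.10 for TPK2 by limma. Without the Sample B arrays 4.81% of all genes passed, among them 3 members. RAS2 was 0.73 higher in replicate 2 (adjusted p = 0.0132), CYR1 0.73 (adjusted p = 0.0154) and TPK2 0.58 (adjusted p = 0.0315). The test of the replicate term was chosen after the values had been seen.

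**Figure D4:**
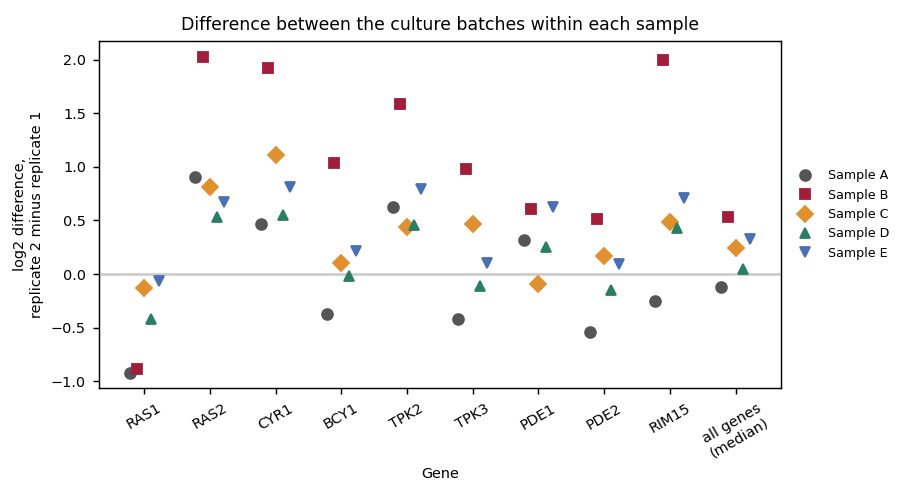
Log2 difference of replicate 2 minus replicate 1 (vertical axis) for each gene and for the median of all genes (horizontal axis), with 1 symbol per sample. RAS2, CYR1 and TPK2 lie above 0 in all 5 samples and RAS1 below 0 in all 5. Sample B gives the largest difference for RAS2 (2.03), RIM15 (2.00) and CYR1 (1.92).

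The genes around the pathway were read in 3 lists. The upstream list holds regulators and modifying enzymes of Ras and the glucose receptor branch, and 17 of its 18 genes were measured. None of the 17 passed in Sample B against Sample A, against 4.4% of all genes, nor with the block, against 10.7%, and their median difference was 0.23 against 0.08 over all genes. The 3 with the largest difference were GPR1, the glucose receptor (0.97 ± 0.47, SE, adjusted p = 0.297 by limma), GPA2, its G protein α subunit (0.93 ± 0.36, SE, adjusted p = 0.193), and ERF2, a subunit of the enzyme that palmitoylates Ras2 (0.68 ± 0.28, SE, adjusted p = 0.22). Without replicate 1 of Sample B, 3 of the 17 passed as higher, against 26.4% of all genes, and without replicate 2 none did, against 4.53%.

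Of the 29 kinases, transcription factors and substrates that act beside or below protein kinase A and Rim15, 3 rose in Sample B, 0 fell and 26 did not pass, against 3.51% of all genes that rose. The median difference of the list was 0.39. ADR1, the activator of glucose-repressed genes, rose by 2.26 ± 0.35 (SE, adjusted p = 0.0145 by limma), with 9.93 and 9.67 in Sample B and 7.56 and 7.52 in Sample A. YAK1, a kinase that opposes protein kinase A, rose by 1.58 ± 0.26 (SE, adjusted p = 0.0167), with 10.88 and 11.10 in Sample B and 9.36 and 9.47 in Sample A. GIS1, a transcription factor that acts under Rim15, rose by 1.28 ± 0.29 (SE, adjusted p = 0.0485), with 10.35 and 10.68 in Sample B and 9.28 and 9.18 in Sample A. For all 3 genes the samples were far apart relative to their replicates. YAK1 and GIS1 fell outside the rule for named genes and were added with their values known.

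With the replicate block 6 of the 29 rose, against 8.11% of all genes. The added ones were NTH1, the neutral trehalase that protein kinase A activates (2.40 ± 0.65, SE, adjusted p = 0.0779 without and 0.00844 with the block), FBP1, the fructose bisphosphatase of gluconeogenesis (1.82 ± 0.56, SE, adjusted p = 0.11 and 0.0435), and PFK26, which makes an activator of phosphofructokinase (1.29 ± 0.60, SE, adjusted p = 0.28 and 0.0489, added with its values known). FBP1 read 8.08 and 6.60 in Sample B and 5.84 and 5.20 in Sample A, where replicate 2 lay under the background level of that array (5.40, the 95th percentile of probe sets for other species), so the size of its difference is uncertain. MSN2 and MSN4, the transcription factors of the stress response element, differed by 0.61 ± 0.35 (SE, adjusted p = 0.378) and 0.65 ± 0.47 (SE, adjusted p = 0.502), and are given for their role. Without replicate 1 of Sample B, 13 of the 29 rose, and without replicate 2, 3 rose, against 26.4% and 4.53% of all genes.

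The third list holds 25 genes taken as activated through Msn2 and Msn4 and held down by protein kinase A. Neither that membership nor other regulators of these genes were examined here. The list was chosen with earlier results of these data known. All 25 differences were above 0 in Sample B against Sample A, with a median of 3.01 against 0.08 over all genes. The share of all genes above 0 was not computed. Of the 25, 11 rose and 0 fell, against 3.51% of all genes that rose. With the block 18 rose, against 8.11% of all genes. HSP12, a small membrane-associated stress protein, read 14.45 and 14.60 in Sample B and 7.38 and 8.09 in Sample A (6.79 ± 0.65, SE, adjusted p = 0.00707 by limma). ALD3, an aldehyde dehydrogenase, read 10.43 and 13.85 in Sample B and 6.46 and 6.11 in Sample A (5.86 ± 0.94, SE, adjusted p = 0.0164). DDR2, a stress-induced protein, read 12.83 and 13.79 in Sample B and 7.20 and 7.90 in Sample A (5.76 ± 0.67, SE, adjusted p = 0.00707). In each of these the Sample B arrays stood well above those of Sample A, although the ALD3 arrays of Sample B were themselves far apart.

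For this list the median difference from Sample A was 1.51 for Sample C, 1.46 for Sample D and 0.58 for Sample E, against -0.01, -0.12 and 0.13 over all genes. The count that rose was 1, 0 and 0, against 0.0184%, 0.0% and 0.0% of all genes called in either direction. With the block it was 7, 5 and 0, against 0.771%, 0.239% and 0.0%. Without either one of the Sample B arrays, which leaves the other spreads to set the error, it was 9, 7 and 0, against 1.49%, 0.587% and 0.0% of all genes that rose. In Sample B itself 23 rose without replicate 1 and 13 without replicate 2, against 26.4% and 4.53% of all genes. The members of the pathway, by contrast, had medians of -0.06, -0.04 and 0.24 in Samples C, D and E. No test of the difference between the list and the members was run.

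**Figure D5:**
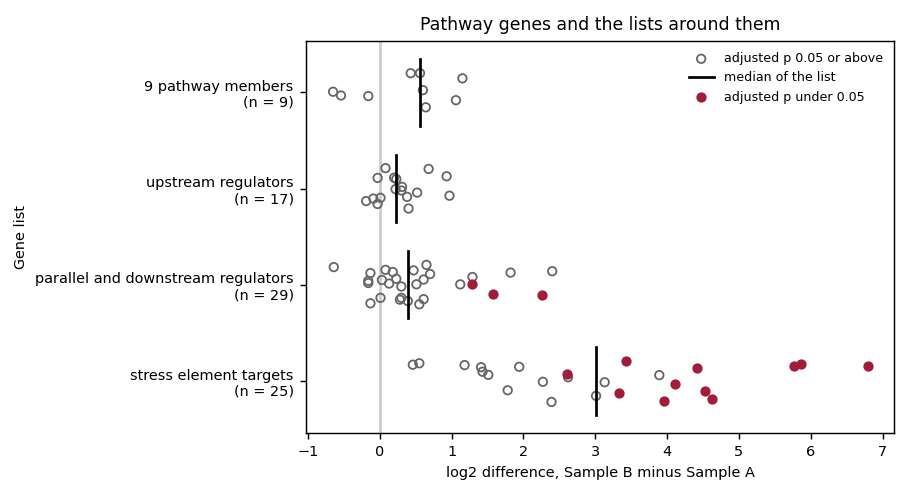
Log2 difference of Sample B minus Sample A (horizontal axis) for the 9 pathway genes and the 3 lists (rows, with points spread vertically for legibility). Filled points passed the test, open ones did not, and bars are medians. The pathway genes have a median of 0.56 and none passed, whereas the stress element targets have a median of 3.01 and 11 of 25 passed. Several pathway genes differed in sign between the replicates, and the lists were chosen with earlier results of these data known.

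For each member the genes whose log2 values followed it most closely over the 10 arrays were also listed, by Pearson r as a description. These points share arrays, batches and array-wide shifts. PDE1 was closest to EMI2, a hexokinase-like gene (r = 0.983), and NGL3 (0.98), and PDE2 to SWF1, a palmitoyltransferase (0.95), and RMD8 (0.941). TPK2 was closest to the Golgi adaptor gene GGA1 (0.984) and the disaggregase gene HSP104 (0.983), and TPK3 to DIG1, an inhibitor in the mating pathway (0.981), and the splicing factor gene SNU56 (0.976). RAS1 followed RCF2 (0.98) and YLR363W-A (0.975), and RAS2 followed the DNA repair gene XRS2 (0.988) and the spindle checkpoint gene MAD3 (0.979). CYR1 followed the kinase gene KIN1 (0.99) and HUL4 (0.989), BCY1 followed YSR3 (0.977) and SRT1 (0.961), and RIM15 followed FAR3 (0.991) and the mitochondrial ribosomal protein gene MRPL10 (0.981). When replicate 2 of Sample B was left out, these correlations were between 0.853 (BCY1 and SRT1) and 0.99 (CYR1 and HUL4). The genes had been picked as the closest over arrays that include those kept here, so high values follow in part from the choice.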

How the data were processed

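RNA of 2 replicate cultures, each sampled at 5 points, was read on 10 Affymetrix Yeast Genome 2.0 arrays. The authors deposited log2 expression values, 1 per probe set, made with RMA in Affymetrix Expression Console (version not given in the sources used here). Whether all arrays were normalised in 1 run is not stated, and array medians differ.

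Of 10928 probe sets, 5498 matched an S. cerevisiae gene through the platform annotation and RefSeq gene identifiers. The probe set with the highest mean was used for 47 genes with several. Another 1746 named probe sets served as background level. The array names no genome build, so no coordinates are given, and promoter and protein sequences were not analysed here.

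Groups were compared with limma 3.58.1 (R 4.3.3), 1 coefficient per group over 10 arrays, eBayes, and Benjamini-Hochberg adjustment over 5449 genes, two-sided. The shared spread can make p-values of comparisons with Sample B too small and the others too large. Ratios and correlations were computed in Python 3.11.15. Each group holds 2 arrays, which limits precision. Replicate numbers pair the arrays on the assumption that a number marks the same culture in every sample. The sample titles give only the number, and the study does not tie it to a culture. Deviations from group means correlated between same-numbered arrays in all 10 pairs of groups (r = 0.22 to 0.52).

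Members were taken by gene name with no measured value in the rule, but the pathway and the lists were chosen with earlier results of these data known. Named are all members, the 3 genes per list with the largest difference in Sample B, and the 2 genes closest to each member. Alternatives were the replicate block, quantile normalisation, median centring, a filter on low values, the mean of probe sets, the compared groups alone, an intensity trend and leaving out each array. The block with centring was added after the values had been seen.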

Additional observations from a re-analysis of the deposited data

How the results depend on the processing

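Over 18 alternative settings and 63 member results, 20 of 1134 values newly passed and none passed with the opposite sign. Another 70 changed sign without passing. In Sample B against Sample A, where 0 members passed, 1 passed with the replicate block, 1 with quantile normalisation and 1 with median centring (PDE1 each time), 2 with the block and centring together (chosen after seeing the data), and 0 to 7 when 1 array was left out. In Sample C against Sample B the range without 1 array was 0 to 6 members, and for the difference between the 2 medium changes 0 to 2, CYR1 (2.08) and RIM15 (1.83) passing without replicate 1 of Sample B. All of these leave-one-out calls came without replicate 1 of Sample B, and the cause was not tested.

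The pairing by replicate number, used as a block, changed the call of no member other than PDE1 in Sample B against Sample A (adjusted p = 0.0221). For all genes in that comparison, 240 passed, against 583 with the block, 496 with quantile normalisation, 453 with centring, 934 with both block and centring, 11 with the 2 samples alone and 0 to 1848 without 1 array. Sample C against Sample A gave 1, against 42 with the block, 0 with quantile normalisation, 187 with the 2 samples alone, 16 with a trend, 56 with block and centring and 0 to 95 without 1 array. Sample D against Sample A gave 0, against 13 with the block, 7 alone, 4 with block and centring and 0 to 35 without 1 array. Sample E against Sample A gave 0, against 33 alone. Sample C against Sample B gave 0, against 1 with the block and 0 to 1333. Sample D against Sample C gave 0, against 1 with the block, 38 alone and 0 to 42. The difference between the medium changes gave 80, against 280 with the block, 159 with quantile normalisation, 144 with centring, 126 with a trend, 525 with block and centring and 0 to 1400.

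With 2 arrays a sample, the 95% intervals in Sample B against Sample A included 0 for all members but PDE1 without the block, and for all but PDE1, RAS1 and TPK2 with it. A sample left with 1 array was assumed to vary like the others.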

Other observations

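Between the members themselves, Pearson r over the 10 arrays ran from -0.84 (RAS1 and TPK2) to 0.91 (CYR1 and RIM15) with a median of 0.50 over 36 pairs. Without replicate 2 of Sample B the range was -0.77 (TPK3 and PDE1) to 0.81 (TPK3 and PDE2) and the median 0.26. TPK3 and PDE2 had r = 0.82 with that array, and CYR1 and RIM15 had 0.78 without it. The correlation of BCY1 with CYR1 was 0.63 over 10 arrays and -0.05 without that array, and that of RAS1 with BCY1 was -0.41 and 0.50. These are descriptions over arrays that share batches.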
